A study of Mus musculus with 6 samples.

Results

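The urea cycle and the enzymes that break down amino acids were examined in the livers of 3 mice lacking sphingosine-1-phosphate (S1P) lyase and 3 wild-type (WT) mice, with 1 Affymetrix mouse expression array per animal. S1P lyase, the product of Sgpl1, is the enzyme that cleaves the signalling lipid S1P. All 6 animals were of mixed C57BL6 and 129sv strain and received no treatment. Their age, sex and litter and the design of the deleted allele were not used here. The genes were 42 enzymes and carriers chosen by symbol and grouped by the amino acid they handle. Of these, 39 had at least 1 probe set annotated with that symbol alone, 58 of the 45101 probe sets on the array, and Gls2, Sds and Amt were not analysed here. Values are log2 signals, so a difference of 1 is a 2-fold change, and each gene is given by its brightest tested probe set. All 39 genes, and 55 of the 58 probe sets, passed the filter on low signal. Probes differ in how brightly they bind, so the levels of different genes are not compared, and where a difference between 2 genes within an array is given, only its change between genotypes is read.

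The liver is the main organ for disposing of amino acids taken in with food or released from protein. Aminotransferases move the amino group of most amino acids onto glutamate, and glutamate dehydrogenase and the urea cycle then turn that nitrogen into urea, which is excreted. The remaining carbon skeletons go through pathways specific to each amino acid, which feed glucose production, the citric acid cycle, ketone bodies and the methyl donor S-adenosylmethionine. In the liver lobule, urea synthesis and much amino acid breakdown lie mainly in the periportal hepatocytes, around the incoming blood, while glutamine synthesis lies in the last hepatocytes before the central vein.

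In the knockout livers 14 of the 39 genes fell and 0 rose (limma, Benjamini-Hochberg adjusted p under 0.05 over 13370 genes). At an unadjusted p under 0.05, 18 were lower and 0 were higher. The share that fell was 35.9%, beside 8.09% of all genes tested, and 10.5% of all genes rose. The falls ranged from 1.34-fold for Got2 to 4.29-fold for Prodh, and 5 genes, Prodh, Gpt, Hal, Kynu and Haao, fell at least 2-fold. Among the 25 genes that were not called, 18 had a lower and 7 a higher knockout mean, with differences from -0.67 to 0.39 log2. The median difference over the 39 genes was -0.34 log2, beside -0.05 over all genes. In 16 of the 39 genes (41%) every knockout array lay below every WT array, as in 21.8% of all genes tested, and in 1, Bckdhb, every knockout array lay above, as in 19% of all genes. In RNA from whole liver, fewer cells of a type and less RNA per cell cannot be told apart.

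**Figure D1:**
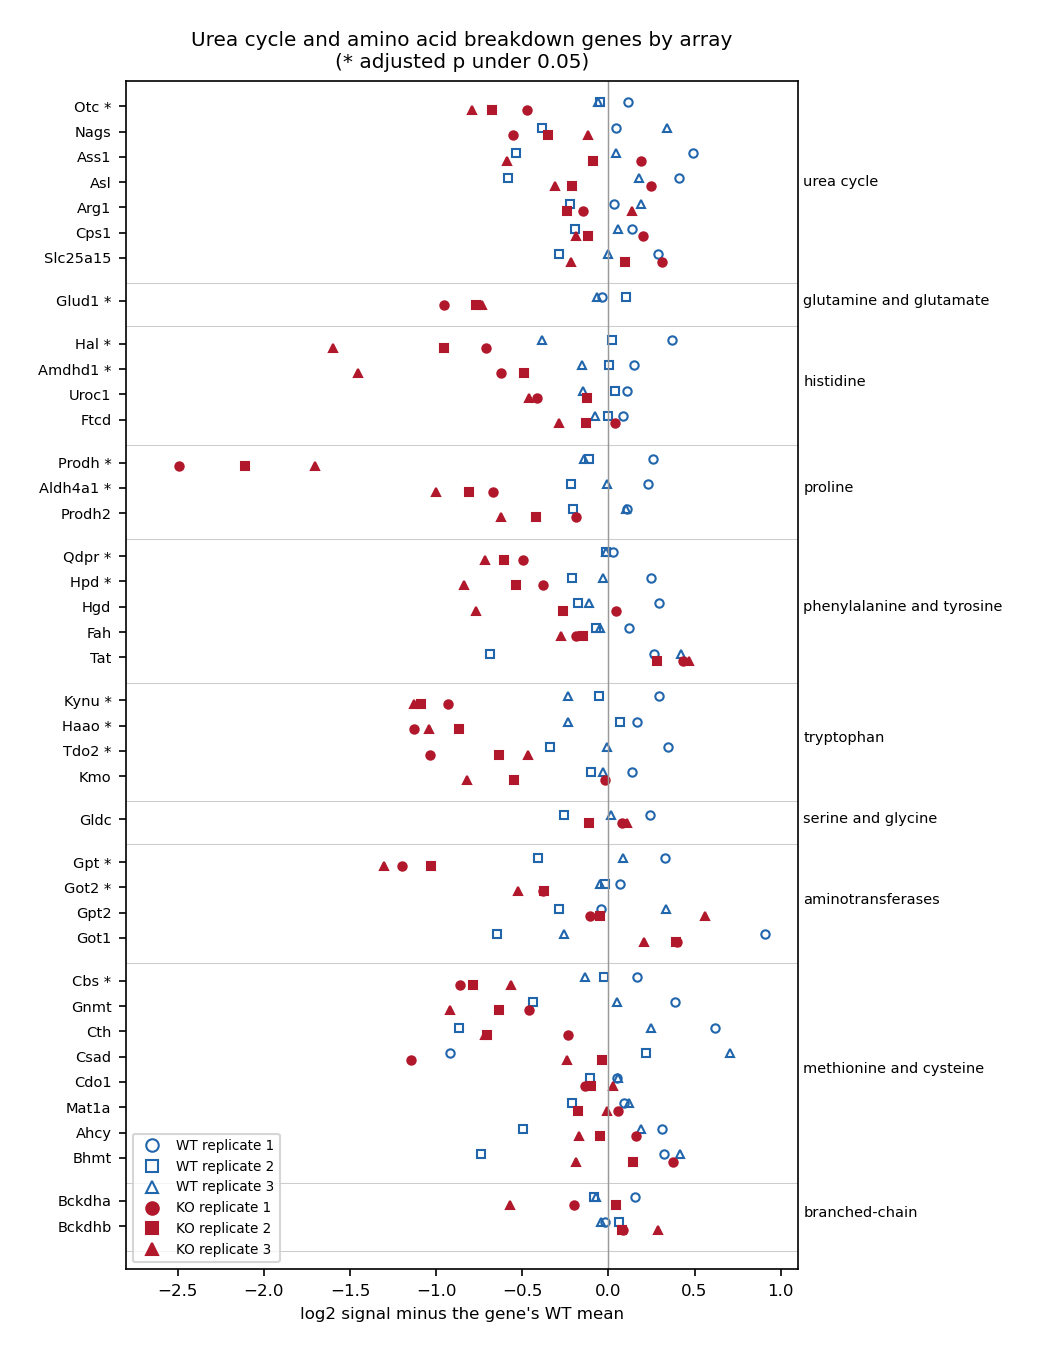
Difference of each of the 39 genes in each array from that gene's WT mean, in log2 units, grouped by amino acid. Knockout arrays of the 14 genes that fell lie to the left of 0, with Prodh the farthest, and Cps1, Arg1 and Slc25a15 of the urea cycle lie close to 0 in both genotypes.

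Several measures of the whole arrays moved with genotype. Sgpl1 read 2.46 to 2.99 log2 in the knockout livers and 6.65 to 6.90 in the WT livers, which matches the labels. The 24 probe sets for the added poly-A control RNAs were 0.75 log2 higher in the knockout arrays, and on a scale centred on them 75.7% of all genes fell, with a median of -0.80 log2. The difference between 3' and 5' control probe sets was also larger in the knockout arrays, Pcx differing by 1.01 log2, Gapdh by 0.47 and Actb by 0.45. Of 12 neutrophil markers tested 11 rose, led by S100a9, S100a8 and Ngp, and their mean level was 8.45 to 8.76 log2 in the knockout and 5.08 to 5.36 in the WT livers. Of 12 general hepatocyte markers 3 fell, Ttr, Apoc1 and Asgr1, by 0.29 to 0.32 log2, and at most 1 did when any 1 array was left out. All 5 markers of B and plasma cells and 3 of 4 of T and NK cells rose as well. Of 11 Kupffer cell and macrophage markers 3 rose and 3 fell, among them Marco (3.02 log2), Lyz2 (2.70) and Vsig4 (-2.30). Of 6 stellate cell markers 2 fell, Reln (-0.64 log2) and Lrat (-1.24), and 1 rose, Pdgfrb (0.55). The mean level of the 12 hepatocyte markers was 12.91 to 12.95 log2 in the knockout and 13.06 to 13.07 in the WT livers. The part of each of these in the changes of the amino acid genes was not tested.

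The urea cycle itself showed 1 change among its 7 genes. Otc, the mitochondrial enzyme that joins carbamoyl phosphate to ornithine, read 10.69, 10.48 and 10.36 log2 in knockout replicates 1, 2 and 3 and 11.27, 11.11 and 11.09 in WT replicates 1, 2 and 3. The groups did not overlap, and Otc fell by 0.65 log2 (SE 0.12, 1.57-fold, adjusted p = 0.00767). The other 6 genes did not pass the test. Cps1, which makes carbamoyl phosphate and is the entry point of the cycle, differed by -0.04 log2 (SE 0.13). Ass1 and Asl, which build and split argininosuccinate, differed by -0.16 (SE 0.28) and -0.09 log2 (SE 0.26), and Arg1, which releases urea, by -0.08 (SE 0.14). Nags, which makes the activator that Cps1 requires, differed by -0.34 log2 (SE 0.20, adjusted p = 0.263). The ornithine carrier Slc25a15 differed by 0.06 log2 (SE 0.18) at its brightest probe set. The errors of Ass1 and Asl were the largest of the 7.

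Glud1, glutamate dehydrogenase, which releases ammonia from glutamate in mitochondria, read 11.26, 11.45 and 11.48 log2 in the knockout livers and 12.18, 12.32 and 12.15 in the WT livers. Its groups lay well apart, and Glud1 fell by 0.82 log2 (SE 0.10, 1.76-fold, adjusted p = 0.00158).

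Aminotransferases come in pairs of related enzymes for the same reaction, 1 mainly mitochondrial and the other mainly cytosolic. Alanine aminotransferase Gpt, the cytosolic form, read 9.29, 9.46 and 9.18 log2 in the knockout and 10.81, 10.07 and 10.57 in the WT livers, and fell by 1.18 log2 (SE 0.19, 2.26-fold, adjusted p = 0.00471). Its mitochondrial counterpart Gpt2 did not pass the test at 0.13 log2 (SE 0.22). Within each array, the log2 signal of Gpt minus that of Gpt2 was 0.20, 0.32 and -0.57 in the knockout livers and 1.67, 1.17 and 1.04 in the WT livers. This difference was 1.31 log2 smaller in the knockout livers without overlap (SE 0.34). The exact two-sided permutation p was 0.1, the smallest that 3 against 3 arrays can give, and 0.15 after adjustment over the 3 pairs of enzymes compared. This comparison used the brightest probe set of each gene and depends on that choice. The other probe set of Gpt differed by -0.61 log2 between genotypes, and those of Gpt2 by 0.47, 0.21 and -0.70 log2.

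Aspartate aminotransferase differed in its mitochondrial form. Got2 read 11.06, 11.06 and 10.91 log2 in the knockout and 11.51, 11.42 and 11.39 in the WT livers, a narrow spread in both genotypes, and fell by 0.43 log2 (SE 0.09, 1.34-fold, adjusted p = 0.0174). Its adjusted p was 0.0529 when knockout replicate 2 was left out and 0.0681 when WT replicate 1 was, and the call was then lost. The cytosolic Got1 had the widest WT spread of the 4 aminotransferases, at 10.94, 9.39 and 9.78 log2, around knockout values of 10.44, 10.43 and 10.24. It did not pass the test with all arrays (0.33 log2, SE 0.34), and without WT replicate 1 it was higher in the knockout livers by 0.78 log2 (adjusted p = 0.0217). The within-array difference between Got2 and Got1 overlapped between genotypes (-0.76 log2, SE 0.44, exact permutation p = 0.4, adjusted 0.4).

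Proline breakdown held the steepest fall of all 39 genes. Prodh, proline dehydrogenase, which opens proline oxidation at the inner mitochondrial membrane, read 6.71, 7.10 and 7.50 log2 in the knockout livers. It read 9.46, 9.09 and 9.06 in the WT livers, so that the highest knockout value lay 1.56 log2 below the lowest WT value. Prodh fell by 2.10 log2 (SE 0.21, 4.29-fold, adjusted p = 0.00066). Aldh4a1, which completes the pathway by oxidising the product to glutamate, read 8.94, 8.80 and 8.61 log2 in the knockout and 9.84, 9.39 and 9.60 in the WT livers, and fell by 0.83 log2 (SE 0.15, 1.77-fold, adjusted p = 0.00785). The related Prodh2, which oxidises hydroxyproline, did not pass the test at -0.41 log2 (SE 0.15, adjusted p = 0.0917). Within each array, Prodh minus Prodh2 was -2.49, -1.87 and -1.26 log2 in the knockout and -0.03, -0.09 and -0.43 in the WT livers, and so did not overlap. The difference between genotypes was -1.69 log2 (SE 0.37), with an exact permutation p of 0.1 and an adjusted p of 0.15 over the 3 pairs.

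Histidine is broken down to glutamate by Hal, Uroc1, Amdhd1 and Ftcd in that order, and 2 of the 4 fell. Hal, histidine ammonia-lyase, which commits histidine to breakdown, read 9.07, 8.83 and 8.19 log2 in the knockout and 10.15, 9.81 and 9.40 in the WT livers. Its groups did not overlap despite a wide spread in each, and it fell by 1.09 log2 (SE 0.26, 2.13-fold, adjusted p = 0.0244). Amdhd1, which opens the imidazolone ring, read 8.18, 8.31 and 7.34 log2 in the knockout and 8.95, 8.80 and 8.64 in the WT livers, and fell by 0.86 log2 (SE 0.24, 1.81-fold, adjusted p = 0.0449). Uroc1, urocanase, and Ftcd, which hands the last one-carbon unit to folate, did not pass the test, at -0.33 log2 (SE 0.13) and -0.13 log2 (SE 0.11). The calls of Hal and Amdhd1 were lost when any 1 of several arrays was left out. The adjusted p of Hal was above 0.05 with knockout replicate 2 left out (0.0662), with WT replicate 1 left out (0.0764) and with WT replicate 2 left out (0.0572). That of Amdhd1 was above it without knockout replicate 1 (0.0729) and without WT replicate 1 (0.125), 2 (0.0943) or 3 (0.0587), after median centring (0.0529) and on a scale centred on the hepatocyte markers (0.0627).

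Of the 4 genes of the kynurenine route of tryptophan breakdown, which leads on to nicotinamide nucleotides, 3 fell. Kynu, kynureninase, read 7.50, 7.35 and 7.31 log2 in the knockout and 8.73, 8.38 and 8.20 in the WT livers, and fell by 1.05 log2 (SE 0.15, 2.07-fold, adjusted p = 0.00329). Haao, which makes the direct precursor of quinolinic acid, read 9.28, 9.54 and 9.36 log2 in the knockout and 10.57, 10.47 and 10.17 in the WT livers, and fell by 1.01 log2 (SE 0.14, 2.02-fold, adjusted p = 0.00226). The nearest knockout and WT arrays lay 0.70 log2 apart for Kynu and 0.63 for Haao. Tdo2, tryptophan dioxygenase, the first enzyme of the route, read 10.88, 11.29 and 11.46 log2 in the knockout and 12.27, 11.58 and 11.91 in the WT livers. Its nearest knockout and WT arrays lay 0.13 log2 apart, and it fell by 0.71 log2 (SE 0.20, 1.64-fold, adjusted p = 0.0439). That call was lost with knockout replicate 1 (adjusted p = 0.131) or 2 (0.105) left out, with WT replicate 1 (0.122) or 3 (0.0788) left out, on the hepatocyte-centred scale (0.0777) and with its probe sets averaged (0.121). Kmo, which hydroxylates kynurenine, did not pass the test (-0.46 log2, SE 0.20), and passed it without knockout replicate 1 (-0.68 log2, adjusted p = 0.0315).

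Phenylalanine and tyrosine breakdown held 2 falls among 5 genes. Qdpr, which regenerates the tetrahydrobiopterin that phenylalanine hydroxylase uses, read 11.27, 11.16 and 11.05 log2 in the knockout and 11.80, 11.76 and 11.75 in the WT livers. The WT values of Qdpr spanned 0.04 log2, and it fell by 0.61 log2 (SE 0.09, 1.52-fold, adjusted p = 0.00414). Hpd, which turns hydroxyphenylpyruvate into homogentisate, read 12.82, 12.67 and 12.36 log2 in the knockout and 13.45, 12.99 and 13.17 in the WT livers, and fell by 0.58 log2 (SE 0.15, 1.50-fold, adjusted p = 0.0336). Hpd was no longer called when knockout replicate 2 (adjusted p = 0.0894) or 3 (0.0731) or WT replicate 1 (0.102) or 3 (0.0601) was left out, or on the hepatocyte-centred scale (0.0604). Tat, tyrosine aminotransferase, the first step of tyrosine breakdown and a classic target of glucocorticoids, read 12.03, 11.88 and 12.07 log2 in the knockout and 11.87, 10.91 and 12.02 in the WT livers. The groups overlapped, and Tat did not pass the test (0.39 log2, SE 0.26, adjusted p = 0.319). Hgd and Fah, which carry homogentisate on to fumarate and acetoacetate, did not pass either, at -0.33 (SE 0.22) and -0.20 log2 (SE 0.10), although every knockout array of Fah lay below every WT array.

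Among 8 genes of methionine and cysteine metabolism Cbs fell. Cbs, cystathionine beta-synthase, which draws homocysteine out of the methionine cycle, read 9.33, 9.40 and 9.62 log2 in the knockout and 10.35, 10.16 and 10.05 in the WT livers. The groups did not overlap, and the fall was 0.74 log2 (SE 0.13, 1.67-fold, adjusted p = 0.00658). The enzymes of the methionine cycle itself, Mat1a, which makes S-adenosylmethionine, and Ahcy, which splits S-adenosylhomocysteine, differed by -0.04 (SE 0.12) and -0.02 log2 (SE 0.21). Gnmt, the glycine methyltransferase that uses up surplus S-adenosylmethionine, read 12.57, 12.39 and 12.11 log2 in the knockout and 13.41, 12.59 and 13.08 in the WT livers. It had the lowest adjusted p of the genes not called (-0.67 log2, SE 0.21, adjusted p = 0.0582), with every knockout array below every WT array. Gnmt passed the test with quantile normalization (adjusted p = 0.0466) and without WT replicate 2 (-0.89 log2, adjusted p = 0.0121). Cth, the enzyme after Cbs, read 11.52, 10.03 and 11.15 log2 in the WT livers, and its difference of -0.55 log2 (SE 0.35) passed the test without WT replicate 2 (-0.99 log2, adjusted p = 0.0151). Bhmt, which remethylates homocysteine with betaine, and the taurine pathway enzymes Cdo1 and Csad did not pass the test, at 0.11 (SE 0.30), -0.07 (SE 0.09) and -0.47 log2 (SE 0.43).

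The remaining genes did not pass the test. Gldc, the decarboxylase of the glycine cleavage system, differed by 0.02 log2 (SE 0.15). Bckdha and Bckdhb, the subunits of the decarboxylase of the branched-chain keto acid dehydrogenase, differed by -0.24 (SE 0.17) and 0.15 log2 (SE 0.10).

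**Figure D2:**
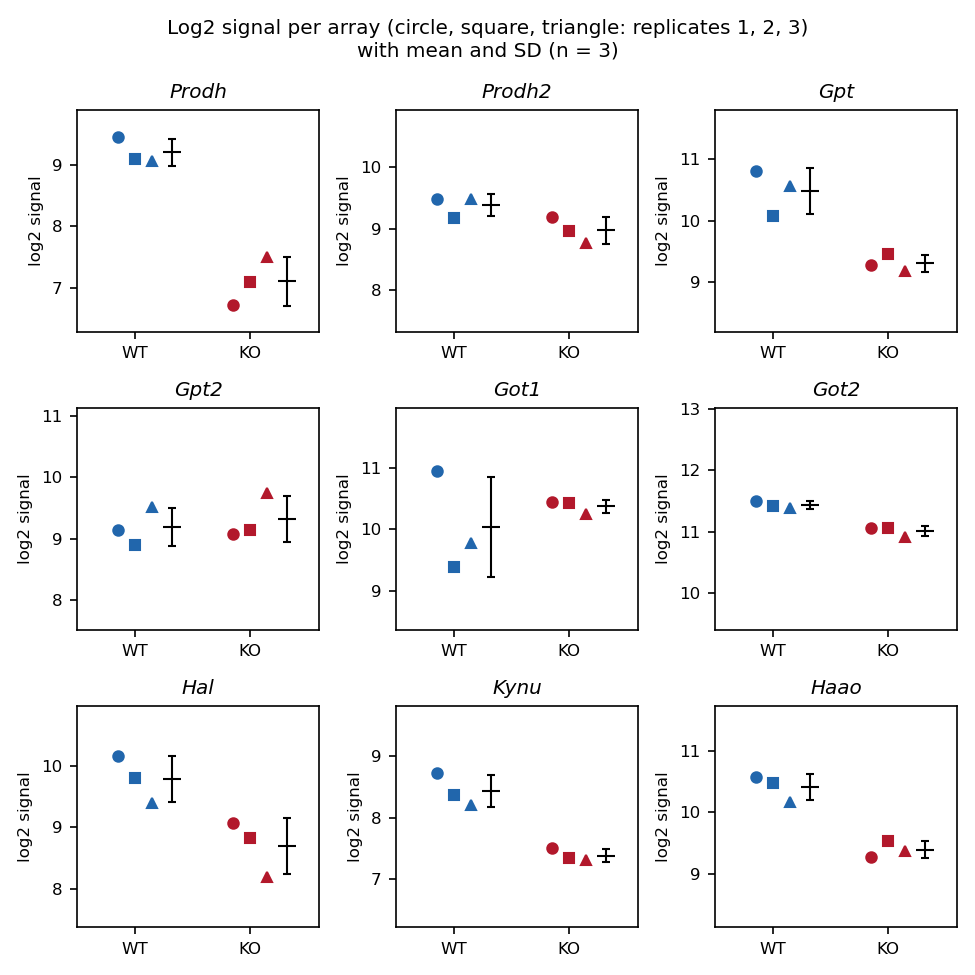
Log2 signal of 9 of the genes in each of the 3 knockout and 3 WT arrays, with the mean and SD of each genotype. Prodh lies at 6.71 to 7.50 in the knockout and 9.06 to 9.46 in the WT livers, while the WT values of Got1 span 1.55 log2.

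Of the 55 tested probe sets of these genes, 23 fell (41.8%) and 0 rose, beside 7.82% and 10.1% of all 27022 probe sets tested. At an unadjusted p under 0.05, 1 was higher, a probe set of Gpt2. Of the 39 genes, 12 had several tested probe sets. In 5 of these, Glud1, Amdhd1, Qdpr, Got2 and Cbs, every tested probe set fell. The second probe set gave a larger difference than the brightest for Cbs (-1.27 log2, SE 0.16), Amdhd1 (-1.33, SE 0.23), Qdpr (-0.93, SE 0.10) and Got2 (-0.82, SE 0.11), and a smaller one for Glud1 (-0.67, SE 0.10). Some of these probe sets, among them the brightest ones of Uroc1, Gpt, Gpt2, Cbs and Qdpr, are of a design that can also bind related transcripts.

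In 6 genes the probe sets differed in call. The second probe set of the ornithine carrier Slc25a15 read 8.04, 8.04 and 8.17 log2 in the knockout and 9.17, 8.59 and 9.10 in the WT livers, and fell by 0.87 log2 (SE 0.16, adjusted p = 0.0096), where the brightest did not. The second of Uroc1 read 8.24, 8.20 and 7.96 log2 in the knockout and 8.96, 8.79 and 8.44 in the WT livers, and fell by 0.60 log2 (SE 0.16, adjusted p = 0.0362). The second of Hgd read 6.20, 6.03 and 6.30 log2 in the knockout and 7.004, 6.95 and 6.60 in the WT livers, and fell by 0.68 log2 (SE 0.15, adjusted p = 0.0178). With these 3, 17 of the 39 genes had at least 1 probe set that fell. A gene with several probe sets has more chances to be counted in this way. The share of all genes counted so was not computed, and the 17 cannot be set beside the shares given above. In the opposite case, Otc, Tdo2 and Gpt fell at the brightest probe set while another did not pass. The second of Gpt differed by -0.61 log2 (SE 0.22, adjusted p = 0.0863), and those of Tdo2 by -0.38 (SE 0.28) and -0.75 log2 (SE 0.28). The other 2 of Otc differed by -0.49 log2 (SE 0.12), which passed the test, and by -0.28 log2 (SE 0.15), which did not. Gpt2 had probe sets of both signs, none called, with differences of 0.47 (SE 0.17), 0.21 (SE 0.22) and -0.70 log2 (SE 0.22) beside the brightest. The first of these read 9.16, 9.21 and 9.56 log2 in the knockout and 8.83, 8.58 and 9.12 in the WT livers, without overlap. The last read 7.96, 7.95 and 8.65 log2 in the knockout and 8.84, 8.65 and 9.18 in the WT livers, with overlap.

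**Figure D3:**
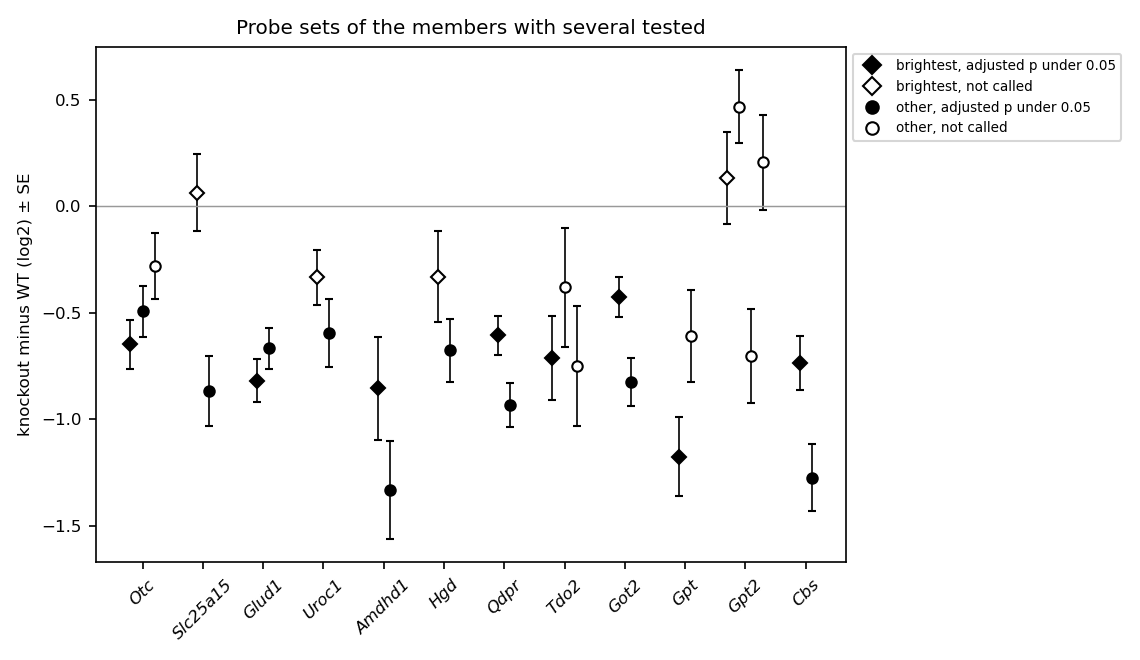
Knockout minus WT difference in log2 units, with its SE, of every tested probe set of the 12 genes that have several. All probe sets of Glud1, Amdhd1, Qdpr, Got2 and Cbs lie below 0, and those of Slc25a15 and Gpt2 lie on both sides.

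The genes also shared an order among the arrays of a genotype. WT replicate 2 was the lowest WT array in 25 of the 39 genes (64.1%, beside 29.1% of all genes), and WT replicate 1 was the highest in 29 (74.4%, beside 33.6%). Knockout replicate 3 was the lowest knockout array in 25 (64.1%, beside 35.7%), and knockout replicate 1 the highest in 20 (51.3%, beside 26.7%). The median gap of WT replicate 2 to the mean of the other WT arrays was -0.29 log2 over the 39 genes, beside -0.00085 over all genes. In 6 genes, Csad, Got1, Cth, Bhmt, Tat and Ass1, the WT arrays spanned at least 1 log2, and WT replicate 2 was the lowest in all of these but Csad. None of these 6 was called, and the share of all genes with such a span was not computed. Leaving out WT replicate 1 reduced the number of genes that fell from 14 to 9, and leaving out WT replicate 2 kept the number at 14, with 12 of the first 14 still called, Hal and Amdhd1 lost, and Gnmt and Cth called in addition. Over all 13370 genes tested, the number that fell went from 1082 to 671 without WT replicate 1 and to 710 without WT replicate 2.

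Upstream sequences of the genes that fell at least 2-fold are shown so that the steepest falls can be set side by side. RefSeq on GRCm38.p6 gave an upstream sequence for 32 of the 42 genes, and of those that fell at least 2-fold for Prodh, Haao and Hal. Of several starts listed for a gene, as for 3 of the 32, the first was taken. The 250 bases before each start are given 5′ to 3′ on the strand of the gene, with matches to the motifs searched in capitals.
Prodh, GRCm38.p6 chr16:18089191-18089440, minus strand: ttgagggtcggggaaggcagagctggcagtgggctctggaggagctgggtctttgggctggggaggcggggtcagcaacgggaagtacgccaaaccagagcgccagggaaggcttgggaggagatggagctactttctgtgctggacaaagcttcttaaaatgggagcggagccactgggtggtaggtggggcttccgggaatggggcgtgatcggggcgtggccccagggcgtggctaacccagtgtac
Haao, GRCm38.p6 chr17:83846791-83847040, minus strand: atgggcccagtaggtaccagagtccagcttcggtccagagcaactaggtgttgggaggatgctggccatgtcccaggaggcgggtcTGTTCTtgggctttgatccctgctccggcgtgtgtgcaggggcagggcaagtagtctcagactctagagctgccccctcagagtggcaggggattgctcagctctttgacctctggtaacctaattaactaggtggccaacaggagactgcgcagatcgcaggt
Hal, GRCm38.p6 chr10:93488518-93488767, plus strand: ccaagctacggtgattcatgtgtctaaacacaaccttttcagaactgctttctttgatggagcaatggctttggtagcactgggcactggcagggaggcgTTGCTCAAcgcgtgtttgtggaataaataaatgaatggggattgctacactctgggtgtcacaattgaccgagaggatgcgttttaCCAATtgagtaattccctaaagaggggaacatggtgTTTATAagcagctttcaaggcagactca
The motifs were searched on both strands as exact letters, and none of them contains another. TATAAA is the TATA box and CCAAT the box of that name. GGGCGG is the GC box of Sp factors. TGACGTCA is the cAMP response element, TTGCNNAA a C/EBP site and CAAAGTCCA an HNF4 site. TGTTCT is the core of a glucocorticoid receptor site. Prodh held 0 matches. Haao held 1, TGTTCT starting 164 bases before the start of the gene. Hal held 3, TTGCTCAA at 150, CCAAT at 64 and a TATAAA on the opposite strand, printed as TTTATA, at 28 bases before the start, and they did not overlap. The lack of a match says only that these letters are not in the window.

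Among the 12 genes that fell and had an upstream sequence, TATAAA occurred in 3 (Got2, Hal and Tdo2), against 2 of the 19 not called and 12.4% of all 32851 sequences. CCAAT occurred in 5 of the 12 and 11 of the 19 (33.8% of all), and GGGCGG in 5 and 8 (32.7% of all). TTGCNNAA occurred in 2 of the 12, Hal and Qdpr, and 2 of the 19 (9.56% of all), and TGTTCT in 1 of the 12, Haao, and 1 of the 19 (16.1% of all). TGACGTCA (1.55% of all) and CAAAGTCCA (0.384%) occurred in none of the 31. These are matches of letters only, in groups of 12 and 19 sequences.

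Other enzymes of amino acid breakdown, from a list of 65 further genes were measured beside these, and 54 were tested. Of the 54, 24 fell (44.4%) and 1 rose, the median difference was -0.53 log2, and 34 had every knockout array below every WT array. Over all genes tested 8.09% fell, 10.5% rose and 21.8% had every knockout array below every WT array. Gcdh, which acts in lysine and tryptophan breakdown, fell by 1.22 log2 (SE 0.12). Aldh7a1, of lysine breakdown, fell by 0.85 log2 (SE 0.12). Gstz1, which lies between Hgd and Fah in the tyrosine pathway, fell by 0.82 log2 (SE 0.09), and Pcbd1, which works beside Qdpr in recycling tetrahydrobiopterin, fell by 0.77 log2 (SE 0.10). Tst, a sulfur transferase of cysteine breakdown, fell by 0.95 log2 (SE 0.11). The gene that rose was Asns, asparagine synthetase, by 1.04 log2 (SE 0.15, adjusted p = 0.00325). On the poly-A centred scale Asns differed by 0.29 log2 and was not called. Asns makes an amino acid, as does Glul, glutamine synthetase, which is on the same list. Glul did not pass the test (-0.64 log2, SE 0.24, adjusted p = 0.103), and passed it without knockout replicate 3 (-0.92 log2, adjusted p = 0.0119) and with array weights (-0.75 log2, adjusted p = 0.0415). The count of falls was 16 without knockout replicate 1 or 2 or WT replicate 1.

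Of 18 amino acid transporters tested, 5 rose and 2 fell, beside 10.5% and 8.09% of all genes tested, with a median of -0.13 log2. Slc1a4, a carrier of neutral amino acids, rose by 1.62 log2 (SE 0.26), Slc7a2, which carries arginine and other cationic amino acids, by 1.15 (SE 0.26), Slc1a5, a glutamine carrier, by 0.77 (SE 0.14) and Slc38a2, a carrier of small neutral amino acids, by 0.66 (SE 0.10). Slc38a3, which carries glutamine into periportal hepatocytes, fell by 0.69 log2 (SE 0.11), and Slc6a13, a carrier of taurine and GABA, by 1.14 (SE 0.14). The number that rose was 3 without knockout replicate 1 or 2, and 3 with probe sets averaged, when Slc38a2 differed by 0.39 log2 (adjusted p = 0.066) and was not called. Slc7a2 lost its call when either of these arrays was left out (adjusted p 0.0739 and 0.0804), when WT replicate 2 was (0.0523) and with its probe sets averaged (0.40 log2, adjusted p = 0.106). On the poly-A centred scale the split was 1 rise and 12 falls, and Slc38a2 and Slc1a5 differed by -0.09 and 0.02 log2.

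Of 18 regulators of these pathways 4 rose and 1 fell, beside 10.5% and 8.09% of all genes tested, with a median of -0.07 log2. Cebpd, a transcription factor of the acute phase, rose by 2.42 log2 (SE 0.18), and its relative Cebpb by 1.12 (SE 0.21). Foxo1, a transcription factor held back by insulin, rose by 1.20 log2 (SE 0.26), and Ppargc1a, a coactivator of fasting metabolism, by 1.66 (SE 0.46, adjusted p = 0.0418). Gcgr, the glucagon receptor, fell by 1.01 log2 (SE 0.16). Cebpa, a hepatocyte transcription factor, did not pass the test at -0.61 log2 (SE 0.19, adjusted p = 0.0642), and passed it without knockout replicate 2 (adjusted p = 0.0387). Without knockout replicate 1 or 2 the number that rose was 2, since Foxo1 (adjusted p 0.0661 and 0.0697) and Ppargc1a (0.117 and 0.123) were no longer called. With its probe sets averaged Foxo1 differed by 0.63 log2 (adjusted p = 0.053) and was not called. Ppargc1a was also lost without WT replicate 1 or 2 (0.0804 and 0.102). On the poly-A centred scale 2 rose and 12 fell, and Cebpb (0.37 log2) and Foxo1 (0.45) were not called. Hnf4a, Klf15 and Nr3c1, known regulators of these enzymes, were picked out of the 13 not called after their values were seen. They differed by -0.07 (SE 0.20), -0.10 (SE 0.24) and 0.02 log2 (SE 0.16). Others of the 13 differed by more, among them Onecut1 (-0.99 log2, SE 0.47) and Foxa3 (0.64, SE 0.21). Onecut1 passed the test without WT replicate 3 (-1.62 log2, adjusted p = 0.00163). Foxa3 passed it without WT replicate 2 (adjusted p = 0.04996) and on the hepatocyte-centred scale (0.038).

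**Figure D4:**
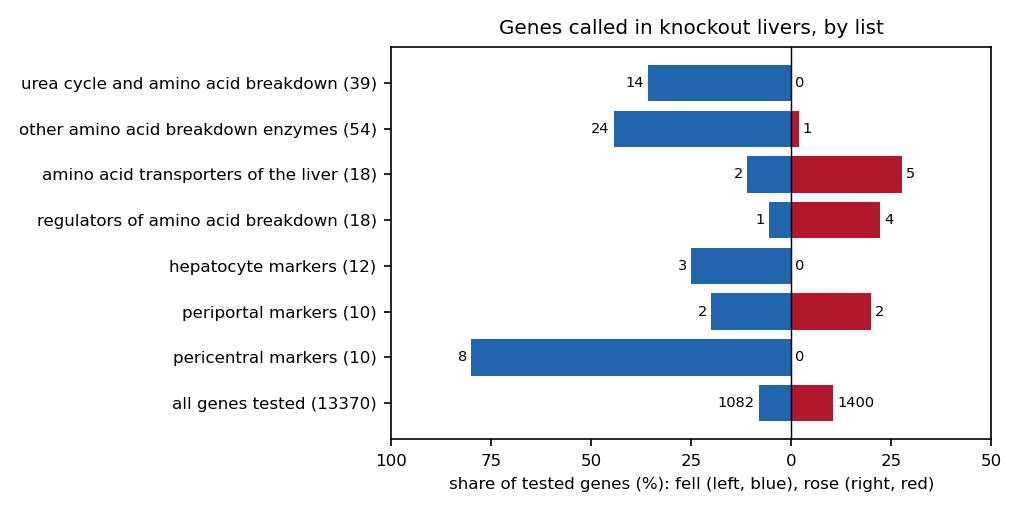
Percent of tested genes that rose and fell in the knockout livers in each list, with the number tested. The 39 genes of the urea cycle and amino acid breakdown show 35.9% fallen, the 54 other breakdown enzymes 44.4%, and all 13370 genes 8.09%.

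Markers of the lobule's zones were measured beside these genes. Over all genes tested 10.5% rose and 8.09% fell. Of 10 periportal markers 2 rose, Cdh1 by 1.17 and Hsd17b13 by 0.52 log2, and 2 fell. Among the latter Cyp2f2 differed by -2.81 log2, Hsd17b6 by -0.56, and the list had a median of -0.10 log2. With any 1 array left out 1 periportal marker fell, since Hsd17b6 lost its call (adjusted p 0.0569 to 0.138), and Hsd17b13 was not called when replicate 1 or 2 of either genotype was left out (0.0701 to 0.0872). On the hepatocyte-centred scale 2 rose and 1 fell. On the poly-A centred scale 7 fell, and Cdh1 (0.42 log2) and Hsd17b13 (-0.23) were not called. The mean level of the 10 was 9.15 to 9.80 log2 in the knockout and 9.60 to 10.02 in the WT livers, and knockout replicate 3 was the lowest, as it was for most amino acid genes. Of 10 pericentral markers 8 fell and 0 rose, also at an unadjusted p under 0.05, where 10 were lower. The number that fell was 6 without knockout replicate 2 or WT replicate 1, and 7 without knockout replicate 1 or WT replicate 3. It was 8 without WT replicate 2 and 10 without knockout replicate 3. On the hepatocyte-centred scale 8 fell, and on the poly-A centred scale 10 did. Cyp1a2 differed by -2.56, Lect2 by -1.54 and Rhbg by -0.72 log2, and the mean level of the 10 was 8.21 to 8.67 in the knockout and 9.28 to 9.55 in the WT livers. The part of the zones in the changes of the amino acid genes was not tested.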

How the data were processed

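Liver RNA was extracted with TRIzol and labelled by the Affymetrix protocol, per the labels' protocols. The deposited values, made by the authors, are log2 signals, 1 per probe set and array. The submitters' processing notes name MAS5, without a version or role. The sources used here do not give the background correction, scaling or summarization. No further normalization was applied. Symbols came from the platform annotation, which gave 34958 probe sets 1 symbol, 932 several and 9211 none, and 64 probe sets are array controls.

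Probe sets with a mean under the 40th percentile (3.58 log2) and controls were left out, leaving 27022. Each gene was taken as its brightest tested probe set with 1 symbol, giving 13370 genes. The 2 genotypes were fitted in R 4.3.3 by limma 3.58.1 (lmFit, eBayes with an intensity trend, two-sided, no covariates). Genes whose Benjamini-Hochberg adjusted p, over all genes, was below 0.05 are said to rise or fall, and probe sets were fitted likewise over all probe sets. A fold is 2 to the power of the log2 difference, and SE is that of limma's fit over 3 against 3 arrays, except for the within-array differences, where it is the ordinary SE of a difference of 2 means. Within-array differences of paired enzymes were compared with an exact permutation test, which cannot give a p under 0.1 with 3 against 3 arrays. The fit was also run on simulated data with independent noise in each gene and array. Those data held no order shared among the arrays of a genotype, so the run does not cover the order described above. Replicates are separate mice, numbered only to name them. No batch is given in the labels, and the number of arrays limits the precision.

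Alternatives left out the filter, raised it to the 60th percentile, used quantile normalization, centred arrays on their median, the hepatocyte markers or the poly-A controls, dropped the trend, weighted arrays, averaged each gene's probe sets, fitted probe sets, or left out 1 array. The genes, lists and markers were chosen with earlier results of these data known. By the rule for naming, all 42 genes are accounted for, with every array's value at the brightest probe set for those called. Where the probe sets of a gene disagree, array values are given for only some of them. Of the other lists up to 6 genes with the smallest adjusted p are named, and of the marker lists up to 3. Hnf4a, Klf15, Nr3c1, Onecut1, Foxa3 and Glul were added outside this rule after their values were seen. Hsd17b6 and the array values of genes not called were added where a result turned on them.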

Additional observations from a re-analysis of the deposited data

How the results depend on the processing

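The falls of Otc, Glud1, Prodh, Aldh4a1, Qdpr, Kynu, Haao, Gpt and Cbs kept their call and direction under all 16 alternatives, and the other 5, Hal, Amdhd1, Hpd, Tdo2 and Got2, kept their direction and lost the call under the alternatives named with each. The number of genes that fell was 13 to 15 under the changes of filter, normalization, trend, weights and probe set rule, 11 when centred on the hepatocyte markers and 9 to 14 with 1 array left out. The number that rose was 0 to 1 with 1 array left out, the 1 being Got1. The number of probe sets that fell was 15 to 21, and of those that rose 0 to 1, with 1 array left out. With centring on the hepatocyte markers 1 probe set rose, and with array weights 1 did.

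Centring each array on its poly-A controls lowered the differences by 0.75 log2. On that scale 37 of the 39 genes and 52 of the 55 probe sets fell, with a median of -1.09 log2 over the genes beside -0.80 over all genes, of which 10120 fell and 377 rose. The differences of Slc25a15 (-0.69), Gldc (-0.73), Gpt2 (-0.62), Bhmt (-0.64) and Bckdhb (-0.60) were then below 0 and those genes were called. Centring on the hepatocyte markers moved the median of all genes to 0.08 log2 and that of the 39 genes from -0.34 to -0.21. Besides poly-A centring, 21 of the 25 genes not called were not called under any of the 15 other alternatives, and the 4 exceptions were Gnmt, Kmo, Cth and Got1. No paired analysis was possible because the labels give the groups no shared replicate numbers. With 3 arrays per genotype, and no detection calls used, small differences and low signals are measured least precisely.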
